A study of Mus musculus with 39 samples.

Results

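The 37 genes described here carry the insulin signal inside the cell, downstream of the receptor substrates: phosphoinositide 3-kinase (PI3K) and AKT, their targets, the mTOR branch, the RAS-MAPK branch, and the proteins that restrain the pathway. They were taken by symbol from the 46517 genes of the deposited tables, all 37 were found under 1 identifier each, and all 37 had enough counts to be tested in both tissues. RNA was sequenced from liver and from triceps surae, the calf muscle group, of female mice aged 25 weeks on a mixed C57BL/6 and 129 background, killed after a 4 h fast. Every mouse lacked Ins1, so both genotypes were already short of an insulin gene: Ins1-/-;Ins2+/- mice kept a single working insulin allele, and their Ins1-/-;Ins2+/+ littermates kept the normal pair of Ins2 alleles. The study compared these genotypes on diet B (5.56 kcal per g, with 58% of calories from fat, 26% from carbohydrate and 16% from protein) and on diet A (4.68 kcal per g, with 25% from fat, 55% from carbohydrate and 20% from protein). The deletions are in the germ line and act in every tissue, and the diets came from different makers, so fat content is not their only difference. There were 5 libraries for each tissue, genotype and diet, and 4 (replicates 2 to 5) for the diet B livers of Ins2+/+ mice. That gave 19 liver and 20 muscle libraries.

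In the textbook pathway, phosphorylated receptor substrates recruit PI3K, a catalytic subunit (p110) held by a regulatory one (p85), which makes the membrane lipid that brings PDK1 and AKT together. AKT then phosphorylates and so turns off the kinase GSK3, the FOXO transcription factors, the RAB regulators TBC1D1 and TBC1D4 and the TSC complex, and it activates the phosphodiesterase PDE3B. Release of RHEB from the TSC complex switches on mTORC1, which drives protein synthesis through S6 kinase and the 4E-BP proteins. In liver this route lowers glucose output and raises lipid and glycogen synthesis, while in muscle it moves the glucose transporter GLUT4 to the surface. Most of this control acts on proteins by phosphorylation, which RNA levels do not show.

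The promoters of 4 genes picked from the results below, Tbc1d1 from the tissue comparison alone, are shown first. The sequence in front of each transcript can thus be read beside its levels. The promoters are RefSeq entries on GRCm38.p6, 250 bases before and 50 bases after the annotated start, 5′ to 3′ on the strand of the gene. RefSeq held promoters for 33 of the 37 genes (44 promoters in all). Capitals mark matches, on either strand, to GGGCGG (the GC box, bound by SP1) or to a loose MEF2 pattern. That pattern is CTA, any 4 bases and TAG.
Tsc1, chr2:28640983-28641282, plus strand: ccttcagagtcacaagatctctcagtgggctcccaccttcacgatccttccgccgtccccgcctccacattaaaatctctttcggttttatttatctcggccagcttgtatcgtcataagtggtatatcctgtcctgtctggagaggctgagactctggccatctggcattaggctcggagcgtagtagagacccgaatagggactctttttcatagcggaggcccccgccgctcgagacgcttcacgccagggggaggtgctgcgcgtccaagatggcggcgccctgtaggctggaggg
Ptpn1, chr2:167932077-167932376, plus strand: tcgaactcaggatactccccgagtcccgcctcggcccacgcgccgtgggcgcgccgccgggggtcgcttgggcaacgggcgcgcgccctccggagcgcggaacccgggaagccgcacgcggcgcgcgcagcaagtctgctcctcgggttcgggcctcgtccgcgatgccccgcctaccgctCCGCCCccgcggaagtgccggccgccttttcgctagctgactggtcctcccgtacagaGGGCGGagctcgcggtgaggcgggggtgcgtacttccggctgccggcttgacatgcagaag
Grb10 (first entry), chr11:12037371-12037670, minus strand: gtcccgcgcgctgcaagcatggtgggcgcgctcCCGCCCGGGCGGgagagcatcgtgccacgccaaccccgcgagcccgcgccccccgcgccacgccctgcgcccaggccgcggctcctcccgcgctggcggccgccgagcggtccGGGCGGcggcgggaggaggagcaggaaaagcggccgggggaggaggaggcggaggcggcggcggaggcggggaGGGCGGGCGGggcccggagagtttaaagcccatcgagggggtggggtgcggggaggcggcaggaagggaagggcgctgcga
Grb10 (second entry), chr11:12027922-12028221, minus strand: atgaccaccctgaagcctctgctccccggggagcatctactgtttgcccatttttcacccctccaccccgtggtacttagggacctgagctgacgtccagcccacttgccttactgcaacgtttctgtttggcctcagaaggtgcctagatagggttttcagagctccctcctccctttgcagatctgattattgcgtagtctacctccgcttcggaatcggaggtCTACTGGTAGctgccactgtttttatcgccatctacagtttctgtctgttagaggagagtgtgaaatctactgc
Tbc1d1 (first entry), chr5:64160010-64160309, plus strand: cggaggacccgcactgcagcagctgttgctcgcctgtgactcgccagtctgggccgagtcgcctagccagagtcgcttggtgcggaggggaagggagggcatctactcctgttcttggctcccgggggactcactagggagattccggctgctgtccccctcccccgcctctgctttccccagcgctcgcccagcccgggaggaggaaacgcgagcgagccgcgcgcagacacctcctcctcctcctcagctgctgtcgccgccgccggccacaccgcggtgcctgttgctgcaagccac
Tbc1d1 (second entry), chr5:64230107-64230406, plus strand: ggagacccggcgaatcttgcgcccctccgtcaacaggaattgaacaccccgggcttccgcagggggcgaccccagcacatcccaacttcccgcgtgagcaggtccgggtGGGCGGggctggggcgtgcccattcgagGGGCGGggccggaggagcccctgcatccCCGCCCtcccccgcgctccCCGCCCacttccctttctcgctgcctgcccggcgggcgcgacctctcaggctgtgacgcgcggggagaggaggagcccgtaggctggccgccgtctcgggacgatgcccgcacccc

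The Tsc1 window held neither of these motifs, nor any of the other 3 that were searched: GTAAACA (the FOXO core), CACGTG (the E-box) and CCAAT. The Ptpn1 window held 2 GC boxes, the first Grb10 window 5 and the second Tbc1d1 window 4. The second Grb10 window held a match to the loose MEF2 pattern, as did Mlst8, against 3.69% of the 32851 promoters in the table. The middle bases of this pattern were left free, and those of the Grb10 match include C and G. Such a match therefore does not identify a MEF2 site. Over the 44 promoters, 26 held a GC box, against 35.7% of all promoters in the table, and 16 held CCAAT, against 37.4%. The FOXO core was found in Akt1 alone (3.65% of all promoters) and the E-box in Rheb alone (7.15%). A match describes letters in a window and no binding was measured.

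Libraries held 1289225 to 54249818 estimated counts in liver (median 4847998) and 1060469 to 13709576 in muscle, of which the 37 genes took 1943 to 80901 counts per liver and 1858 to 26775 per muscle. For a gene with no count, a level of 3 counts remains possible, which is 0.0553 to 2.33 CPM (the normalised count scaled to 1000000 counts per library) for livers, and 0.219 to 2.83 CPM for muscles, counting error only. The tissues matched their labels: 10 hepatocyte markers had sums of 105010 to 156061 CPM in liver and of 156 to 2094 CPM in muscle, and 12 muscle fibre markers had sums of 3.36 to 140 CPM in liver and of 65681 to 128900 CPM in muscle. Muscle was the noisier tissue, with a biological coefficient of variation of 51.8% against 19.1% in liver. The muscle libraries Ins2+/- B 2, Ins2+/- B 4 and Ins2+/- A 3 stood apart, deviating from their group medians by a median of 0.60 to 0.66 (log2), against at most 0.35 in the others. Mitochondrial transcripts made up 49.7% of counts in Ins2+/- B 2 and 26.8% in Ins2+/- A 3, the highest shares of all muscles. Islet hormone transcripts reached 5 CPM or more in 6 livers and 9 muscles, those 3 included. Livers Ins2+/- B 2 and B 3 differed least of all same-group pairs (a chi-square of 1.15 per degree of freedom once thinned to equal depth, with 2.48 for the next pair), and whether separate mice gave them is not known. In each tissue the libraries numbered replicate 1 deviated from their groups together (mean correlation of 0.22 in both tissues).

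The tissue was by far the strongest divide among these genes. Liver had more Pde3b, Pik3cb, Pik3r1, Phlpp1, Sos1 and Shc1, and muscle had more Tbc1d1, Tbc1d4, Grb10, Foxo4, Inppl1, Akt2, both Gsk3 genes and Pik3ca. In a fit over all 39 libraries, 12 of the 37 genes were higher (38% of all genes) and 17 lower (39.8% of all genes) in liver than in muscle, at an adjusted p below 0.05 (edgeR's quasi-likelihood test, Benjamini-Hochberg over 13714 genes). Among all genes tested the share called was 77.8%, so 29 of 37 is near what any gene showed. Levels below are normalised CPM of that joint fit, given as lowest, median and highest library, and differences are log2 ratios ± SE of liver over muscle. Per-cell and per-tissue amounts cannot be separated in bulk RNA: fewer cells of a type and less RNA per cell look alike.

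**Figure D1:**
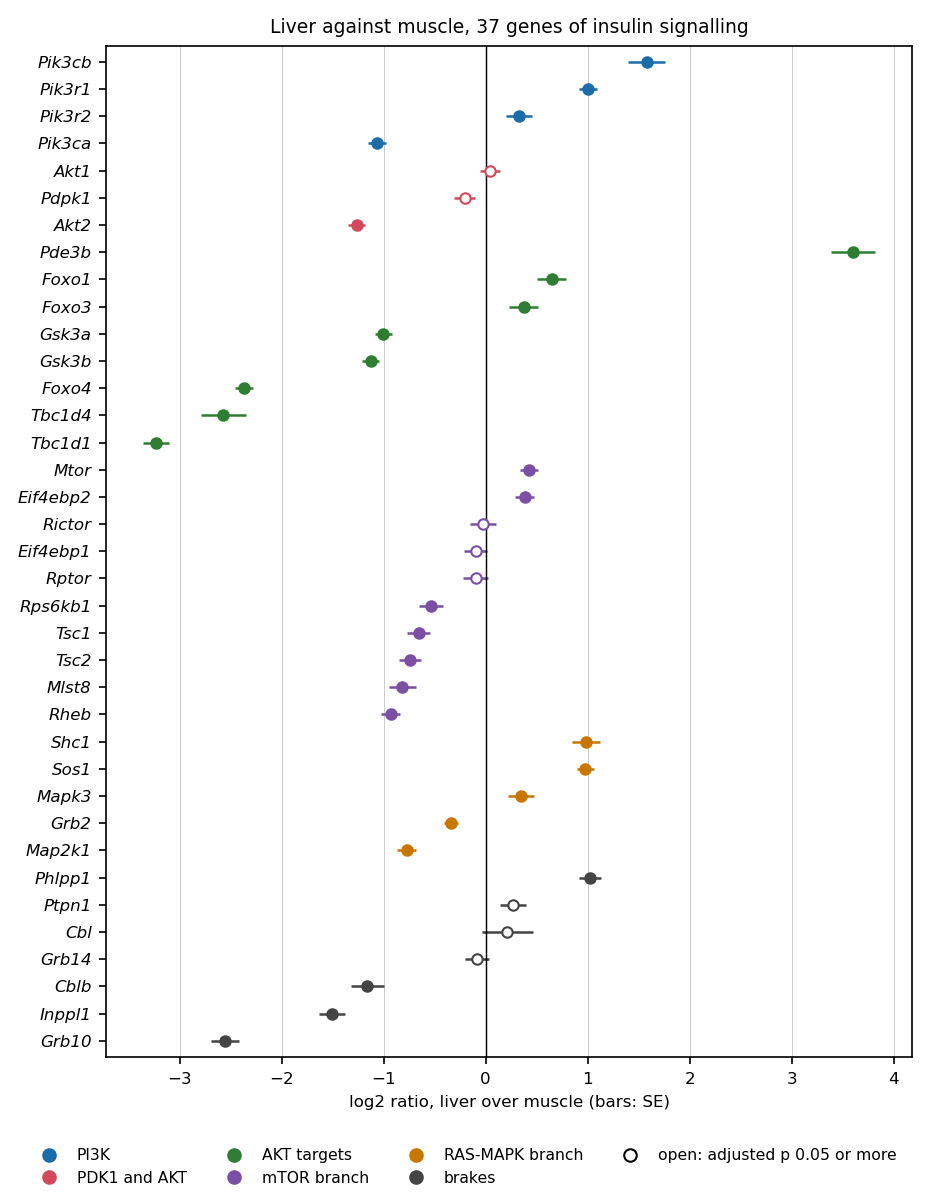
Log2 ratio of liver over muscle for each of the 37 genes (x axis; bars are SE), grouped and coloured by role, from the fit over 19 liver and 20 muscle libraries. Filled points have an adjusted p below 0.05; Pde3b (3.60) and Tbc1d1 (−3.23) lie at the extremes.

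Within PI3K, Pik3ca was lower in liver and the other 3 genes were higher. Pik3ca, which encodes the p110 alpha subunit that carries most insulin signalling, lay at 32.1, 40.0 and 46.1 CPM in the livers, against 62.0, 77.2 and 146 CPM in the muscles. Every liver was below every muscle (−1.07 ± 0.09, adjusted p = 8.0e-14). Pik3cb, the p110 beta subunit, ran the other way, at 17.7, 28.3 and 33.6 CPM in the livers against 0, 9.65 and 15.6 CPM in the muscles, again without overlap (1.58 ± 0.18, adjusted p = 4.8e-10). The regulatory gene Pik3r1, which encodes p85 alpha and its short forms, had a median of 97.8 CPM in liver and 48.1 CPM in muscle (1.00 ± 0.09, adjusted p = 4.3e-13). Pik3r2, for p85 beta, differed little, with medians of 18.0 and 15.5 CPM (0.33 ± 0.13, adjusted p = 0.0192), a call lost with limma-voom and without the libraries with islet transcripts.

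Of the kinases that follow, Akt2, the AKT form most tied to glucose control, was the most even gene in liver. It lay at 86.8, 96.1 and 103 CPM in the livers, a coefficient of variation of 3.92%, and at 112, 237 and 289 CPM in the muscles. All muscles exceeded all livers (−1.26 ± 0.08, adjusted p = 8.2e-17). Akt1 (medians 48.1 and 48.6 CPM; 0.04 ± 0.10) and Pdpk1, the gene for PDK1 (42.7 and 50.02 CPM; −0.21 ± 0.10), did not pass the test (adjusted p of 0.701 and 0.0646), though Akt1 passed with RLE scaling and DESeq2. Pdpk1 passed with limma-voom, the stricter filter or livers Ins2+/- B 2 and B 3 summed, without the libraries with islet transcripts, without the muscles that stood apart, and in some fits that left out a single library.

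The AKT targets held the widest tissue differences, with 3 genes higher in liver and 5 lower (38% and 39.8% of all genes). Pde3b, whose enzyme breaks down cyclic AMP and so opposes glucagon and adrenaline, stood at 63.7, 88.2 and 126 CPM in the livers, against 0, 6.94 and 22.5 CPM in the muscles. That is a 12.1-fold higher level in liver (3.60 ± 0.22, adjusted p = 9.2e-18). Tbc1d1 and Tbc1d4, which hold GLUT4 vesicles inside the cell until AKT phosphorylates them, were the reverse. Tbc1d1 lay at 5.89, 10.3 and 16.6 CPM in the livers and 66.6, 94.2 and 174 CPM in the muscles (−3.23 ± 0.13, adjusted p = 1.7e-23). Tbc1d4 lay at 0.970, 2.21 and 3.59 CPM in the livers and 3.47, 12.1 and 24.7 CPM in the muscles (−2.57 ± 0.22, adjusted p = 1.4e-13). The highest Tbc1d4 liver just passed the lowest muscle, and as few as 3 counts lay behind a liver value.

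The glycogen synthase kinases Gsk3b (median 32.7 against 74.1 CPM; −1.13 ± 0.08) and Gsk3a (41.2 against 83.7 CPM; −1.004 ± 0.084) were both lower in liver. All livers were below all muscles for Gsk3b, while for Gsk3a the highest liver, at 53.1 CPM, exceeded the lowest muscle, at 46.3 CPM. The FOXO genes, whose products switch on gluconeogenic genes in liver and atrophy genes in muscle, did not move as a family. Foxo4 lay at 24.9, 30.4 and 34.9 CPM in the livers against 91.2, 153 and 236 CPM in the muscles (−2.37 ± 0.09, adjusted p = 1.6e-24), the lowest adjusted p of the 37 genes. Foxo1 was higher in liver, with medians of 46.1 and 29.9 CPM (0.65 ± 0.14, adjusted p = 0.000106), and so was Foxo3, with 49.1 and 37.8 CPM (0.37 ± 0.14, adjusted p = 0.0172), and for both the tissues overlapped. The Foxo3 call was lost without the libraries with islet transcripts and without the replicate 1 libraries.

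In the mTOR branch, 2 of 10 genes were higher and 5 lower in liver (38% and 39.8% of all genes), all within 1 log2 unit. The lower ones were Rheb (−0.93 ± 0.10), the small GTPase that activates mTORC1, Mlst8 (−0.82 ± 0.13), a subunit of both mTOR complexes, Tsc2 (−0.74 ± 0.11) and Tsc1 (−0.66 ± 0.11), the brake on Rheb, and Rps6kb1 (−0.53 ± 0.12), which encodes S6 kinase. Higher in liver were Mtor itself (0.43 ± 0.09) and Eif4ebp2 (0.38 ± 0.09), a repressor of translation that mTORC1 inactivates. Rptor (−0.10 ± 0.12) and Rictor (−0.03 ± 0.13), which define mTORC1 and mTORC2, and Eif4ebp1 (−0.10 ± 0.11) did not pass. Rptor passed with limma-voom, without the libraries with islet transcripts and without the muscles that stood apart.

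In the RAS-MAPK branch, Sos1, the exchange factor that loads RAS with GTP, lay at 43.9, 51.0 and 65.6 CPM in the livers against 14.4, 25.7 and 43.7 CPM in the muscles (0.98 ± 0.08, adjusted p = 1.7e-13). The adaptor Shc1 was also higher in liver (0.98 ± 0.14), as was Mapk3, the gene for ERK1 (0.35 ± 0.13). The adaptor Grb2 (−0.34 ± 0.07) and the kinase Map2k1, for MEK1 (−0.77 ± 0.09), were lower in liver. The Mapk3 call was lost under the same alternatives as that of Foxo3.

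Among the brakes, Grb10 and Inppl1 were higher in muscle. Grb10, an adaptor that binds the insulin receptor and blocks it, lay at 3.84, 8.35 and 15.1 CPM in the livers against 23.2, 54.3 and 74.5 CPM in the muscles (−2.56 ± 0.14, adjusted p = 2.2e-19). Inppl1, which encodes the lipid phosphatase SHIP2, had medians of 35.1 and 101 CPM (−1.51 ± 0.13, adjusted p = 1.4e-13). The tissues overlapped for Inppl1, with the highest liver at 39.9 CPM and the lowest muscle at 28.4 CPM. The ubiquitin ligase Cblb was lower in liver as well (−1.16 ± 0.16). Phlpp1, whose phosphatase removes phosphate from AKT, was higher in liver, with medians of 28.8 and 13.7 CPM (1.02 ± 0.11, adjusted p = 4.8e-11). Grb14 (−0.08 ± 0.12), a relative of Grb10, Cbl (0.21 ± 0.25) and Ptpn1 (0.27 ± 0.13, adjusted p = 0.0556), the gene for the receptor phosphatase PTP1B, did not pass. Ptpn1 passed with RLE scaling, DESeq2, limma-voom or the replicate block, without the libraries with islet transcripts, without the muscles that stood apart, and in some fits that left out a single library. Cbl passed without the libraries with islet transcripts.

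Divided by exon length, the abundance order also differed between tissues. In liver the top 4 of the 37 genes were Akt2 (19.9 ± 0.78 CPM per kb of exon, SD, n = 19), Rheb (19.6 ± 3.32), Gsk3a (18.6 ± 2.01) and Akt1 (17.8 ± 1.68), and neighbours in this order did not differ beyond their SDs. In muscle Foxo4 (50.05 ± 10.4 CPM per kb, SD, n = 20) and Akt2 (47.9 ± 9.23) led, followed by Rheb (37.6 ± 9.86) and Gsk3a (37.2 ± 8.12). The lowest were Tbc1d4 in liver (0.345 ± 0.102) and Cbl in both tissues (0.498 ± 0.136 in liver and 0.444 ± 0.252 in muscle). The median gene stood at 6.12 CPM per kb in liver and 6.92 in muscle. Across libraries of a tissue, the coefficient of variation of the 37 genes ran from 3.92% (Akt2) to 42.0% (Grb10) in liver, with a median of 13.8%, and from 15.5% (Grb2) to 74.0% (Pde3b) in muscle, with a median of 28.7%.

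How far 1 gene of a related pair led the other differed between the tissues for some pairs, while all 11 pairs kept the same order of means. The ratio of the members of a pair in the same library needs no scaling between tissues, and is given here as the mean log2 ratio of counts per kb ± SD. Pik3ca and Pik3cb were about equal in liver (0.12 ± 0.31, n = 19), whereas Pik3ca led by 3.02 ± 1.32 in muscle (n = 20), and the libraries did not overlap. Muscle Ins2+/- A 3, at 7.72, widened that mean and SD, with the other muscles at 1.75 to 4.06. It had 0 Pik3cb counts, so its ratio rests on the pseudocount of 0.5 counts. Akt1 and Akt2 were close in liver (−0.17 ± 0.15), and Akt2 led in muscle (−1.49 ± 0.36), also without overlap. Foxo4 exceeded Foxo1 by 0.92 ± 0.34 in liver and by 3.95 ± 0.69 in muscle. Grb10 was at −3.30 ± 0.75 relative to Grb14 in liver and at −0.72 ± 0.62 in muscle. The ratio of Gsk3a to Gsk3b overlapped between the tissues (2.26 ± 0.27 and 2.13 ± 0.26), as was that of Rptor to Rictor (0.85 ± 0.32 and 0.90 ± 0.85). These pairs were picked after the levels were known, so the ratios are a description with no test.

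**Figure D2:**
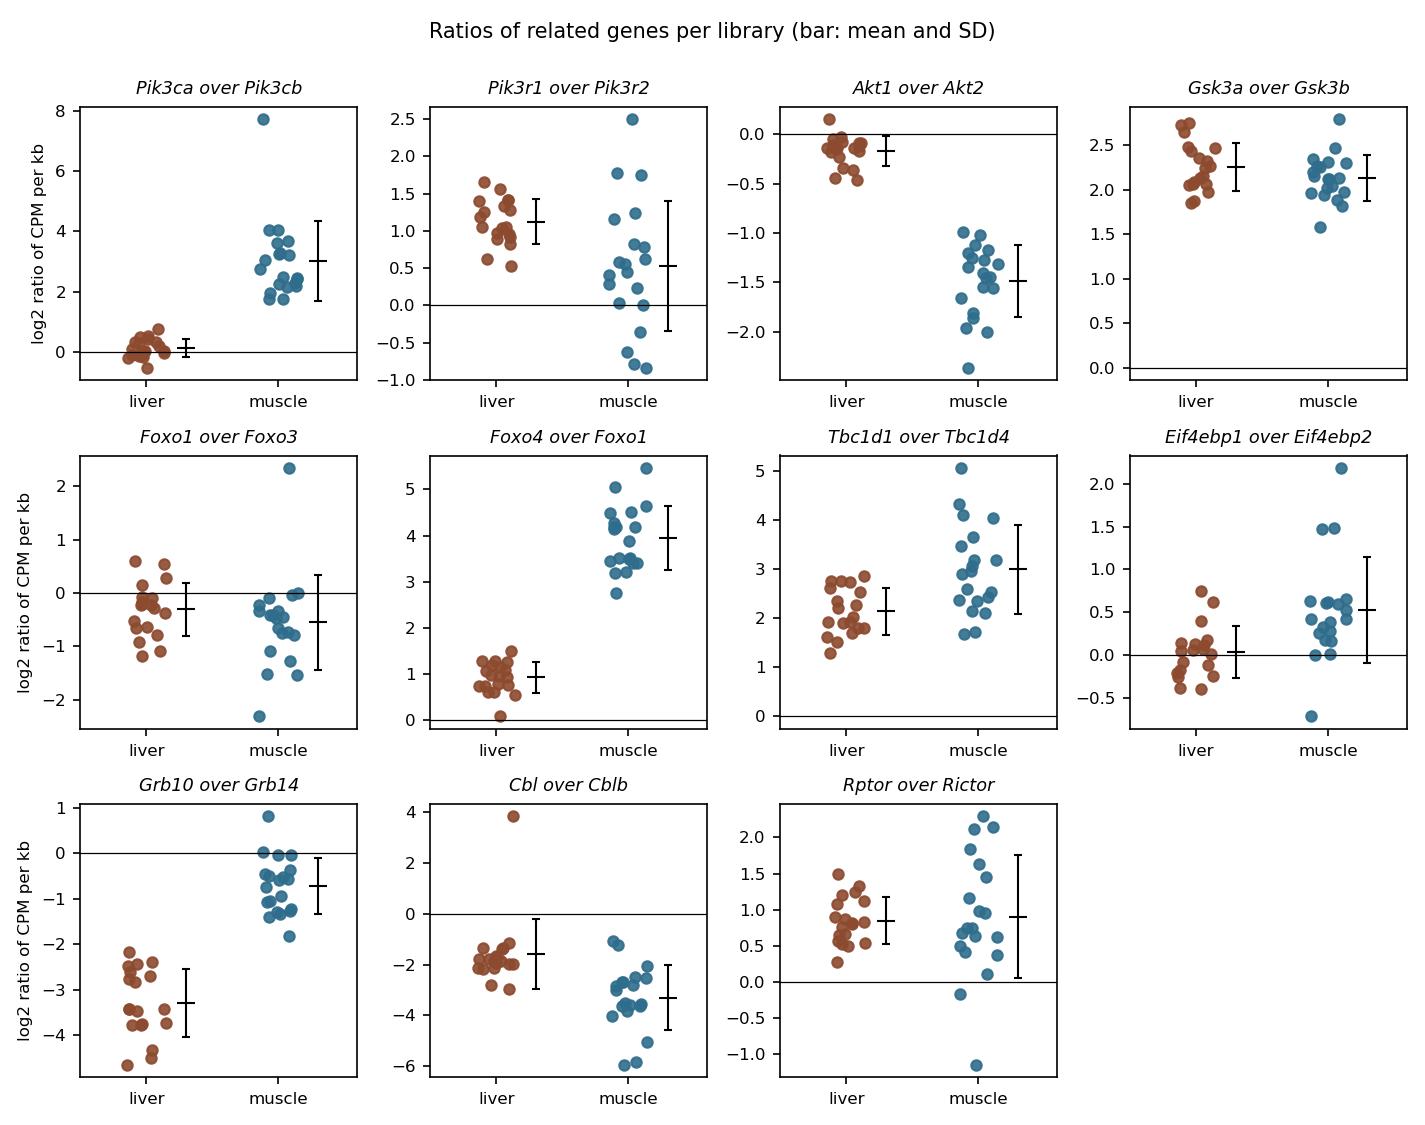
Log2 ratio of counts per kb of exon for 11 pairs of related genes (y axis, pseudocount of 0.5 counts), 1 point per library, with liver left and muscle right and the mean and SD beside the points. Liver and muscle do not overlap for Pik3ca over Pik3cb, Akt1 over Akt2, Foxo4 over Foxo1 and Grb10 over Grb14.

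Of 67 other pathway genes tested, 21 were higher and 33 lower in liver, a share near that of all genes (77.8% called). Gys2, the liver form of glycogen synthase, averaged 177 ± 41.0 CPM in liver and 0.412 ± 0.521 CPM in muscle (SD, n = 19 and 20), while Gys1 averaged 3.58 ± 1.07 and 390 ± 91.5 CPM. Slc2a4, the gene for GLUT4, averaged 0.488 ± 0.581 CPM in liver and 364 ± 90.8 CPM in muscle, and Rragd, a GTPase that recruits mTORC1 to the lysosome, 2.85 ± 1.08 and 331 ± 59.6 CPM. Of 31 FOXO targets, a list that holds Foxo1 and Pik3ca of the 37 genes and shares Insr, Irs2 and Trib1 with the other pathway genes, 12 were higher in liver, such as catalase (Cat, 3.48 ± 0.09), and 16 lower, among them Pdk4 (−7.21 ± 0.18) and the atrophy ligases Fbxo32 (−5.91 ± 0.17) and Trim63 (−11.73 ± 0.32). Of 16 outputs of mTORC1 and ATF4, 3 were higher and 11 lower in liver.

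Within a tissue, the lowest adjusted p among the 37 genes was that of Grb10 for diet in liver. Grb10 and Tsc1, which restrain the insulin receptor and mTORC1, had higher estimates on diet B, as did Pde3b. None of the 37 passed an adjusted p of 0.05 in edgeR's quasi-likelihood test, where 0.238% of all genes were called (0.187% higher and 0.0509% lower). At an unadjusted p below 0.05 there were 4 of the 37 (12.8% of all genes). DESeq2 called 1 (Grb10) and limma-voom 2 (Grb10 and Tsc1), with 4 and 8 at an unadjusted p below 0.05. Of the 37 estimates 23 were above 0, with a median of 0.03 (log2), against a median of 0.00 over all genes.

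**Figure D3:**
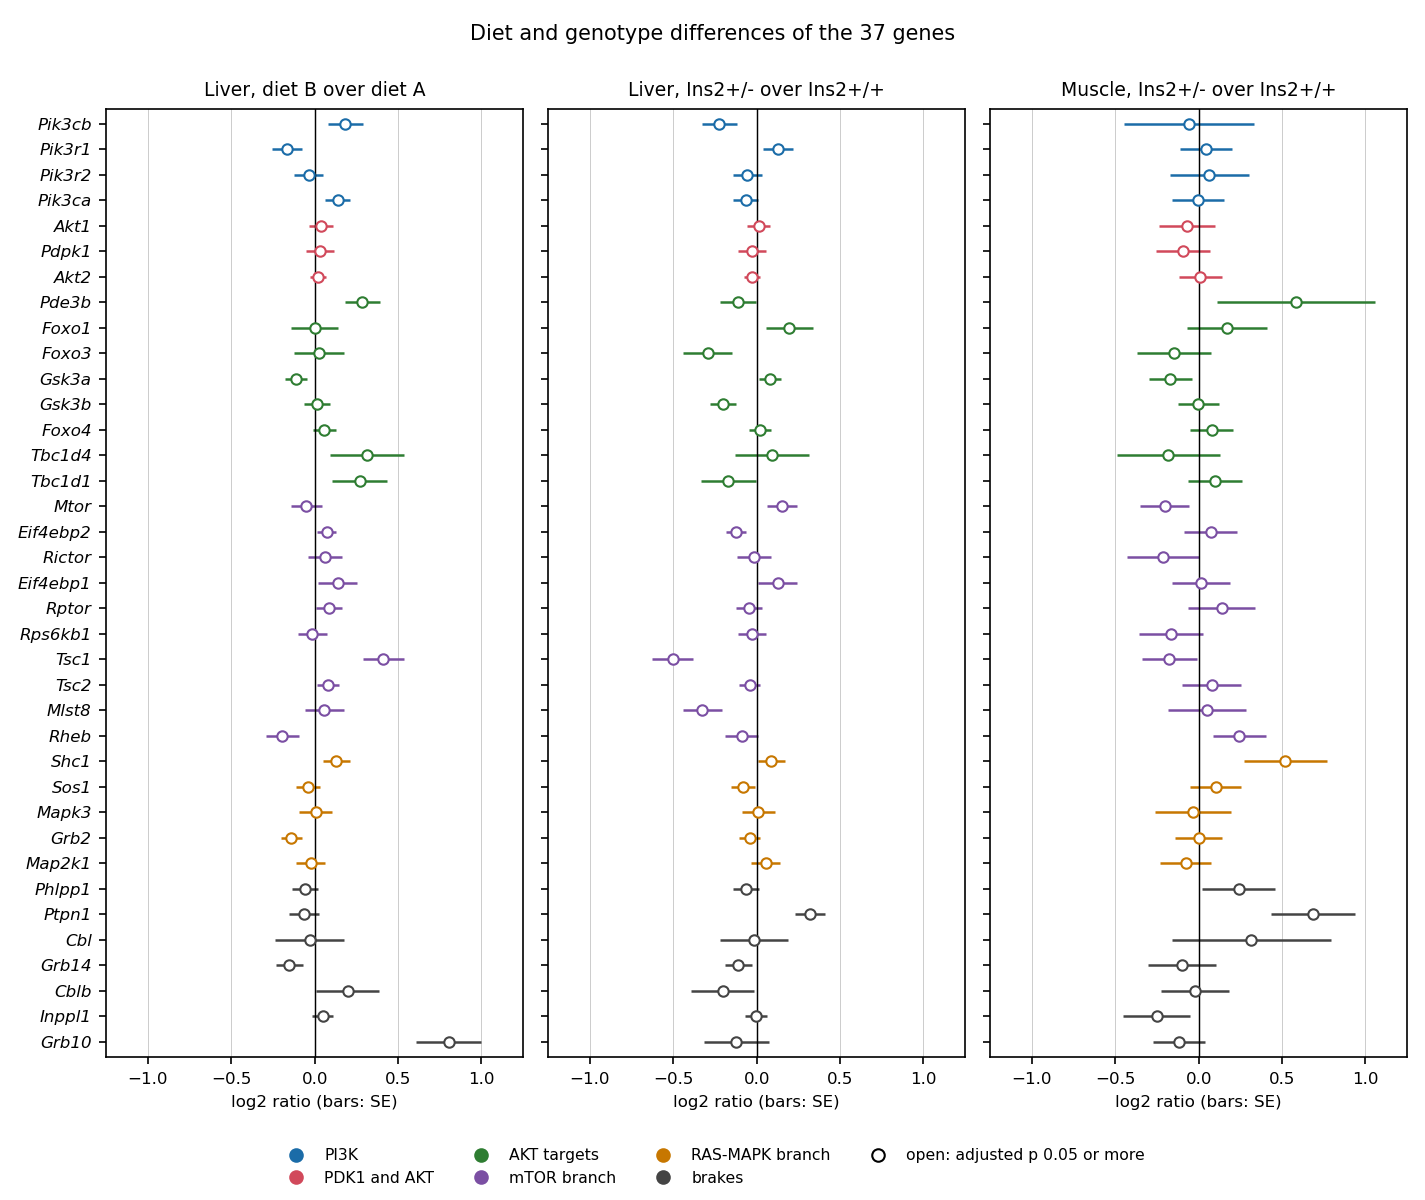
Log2 ratios (x axes; bars are SE) of the 37 genes for diet B over diet A in liver and for Ins2+/- over Ins2+/+ in liver and in muscle, grouped and coloured by role as in the tissue plot. All points are open, since none had an adjusted p below 0.05; Grb10 (0.80) stands out for diet, Tsc1 (−0.50) and Ptpn1 (0.32) for genotype in liver.

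Grb10 stood at 13.9, 14.0, 15.3, 13.1 and 8.45 CPM in Ins2+/- livers on diet B, against 5.14, 5.92, 4.11, 6.31 and 7.54 CPM on diet A. In Ins2+/+ livers it stood at 12.5, 8.18, 10.8 and 12.4 CPM on diet B, against 4.64, 15.3, 7.28, 8.49 and 3.93 CPM on diet A. All 9 diet B livers were above the diet A mean of their genotype, and the diets did not overlap in Ins2+/- livers. In Ins2+/+ livers they did: 1 liver on diet A, at 15.3 CPM, exceeded all those on diet B. The ratio of diet B over diet A was 0.80 ± 0.19 (adjusted p = 0.0687, edgeR's quasi-likelihood test). Without liver Ins2+/+ A 2 it was 1.02 with an adjusted p of 0.00304, and without liver Ins2+/- B 5 it was 0.85 with an adjusted p of 0.0336. DESeq2 gave an adjusted p of 0.0100 and limma-voom of 0.0247. Without the 6 livers with islet transcripts the ratio was 0.60.

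Tsc1, which forms with Tsc2 the complex that turns RHEB off, stood at 27.3, 39.02, 37.6, 33.9 and 34.8 CPM in Ins2+/- livers on diet B, against 20.0, 22.0, 31.9, 24.1 and 24.1 CPM on diet A. In Ins2+/+ livers it stood at 46.7, 37.003, 48.6 and 50.4 CPM on diet B, against 20.5, 43.9, 44.4, 36.1 and 41.5 CPM on diet A. The lowest of the Ins2+/+ livers, A 1, lay at the level of the Ins2+/- livers on diet A. The diet ratio was 0.41 ± 0.12 (adjusted p = 0.138), higher in 8 of 9 diet B livers than the diet A mean, and limma-voom gave an adjusted p of 0.0397. Its partner Tsc2 had a ratio of 0.08 ± 0.07.

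Pde3b stood at 125, 110, 114, 97.1 and 64.3 CPM in Ins2+/- livers on diet B, against 80.8, 71.8, 73.4, 75.6 and 72.4 CPM on diet A. In Ins2+/+ livers it stood at 129, 81.7, 81.3 and 104 CPM on diet B, against 90.3, 103, 92.9, 76.7 and 91.7 CPM on diet A. The Ins2+/- livers on diet B held both high values and the lowest of all, and the groups overlapped. The ratio was 0.29 ± 0.11 (adjusted p = 0.237), and 0.13 without the livers with islet transcripts. Grb2 had the lowest p among the negative ratios (−0.14 ± 0.06, adjusted p = 0.347). Rheb (−0.19 ± 0.10) and Grb14 (−0.15 ± 0.08) came next. Sums of markers of other cells were also compared between the diets in these livers. The 6 erythroid markers had median sums of 409.7 CPM on diet B and 534 CPM on diet A in Ins2+/- livers, and of 232 and 557 CPM in Ins2+/+ livers. The 9 stellate cell and fibroblast markers summed to 277 to 333 CPM on diet B and 262 to 341 CPM on diet A in Ins2+/- livers, and to 331 to 371 and 254 to 335 CPM in Ins2+/+ livers. For both lists the ranges of the diets overlapped in each genotype. The part of these markers in the diet ratios was not tested.

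**Figure D4:**
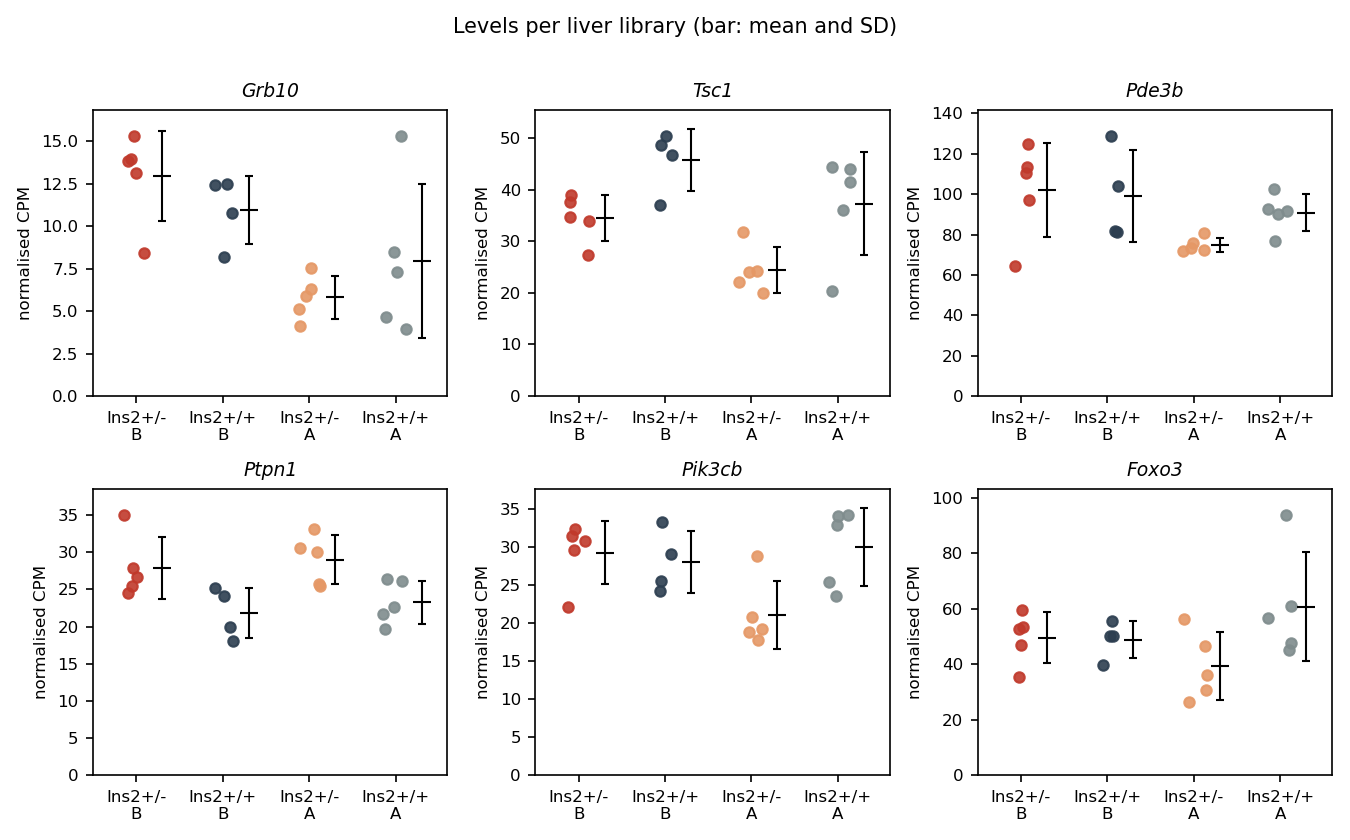
Normalised CPM (y axes, from 0) of 6 genes in every liver, by group, with diet B left of diet A and Ins2+/- left of Ins2+/+ on each diet, 5 libraries per group (4 for Ins2+/+ on diet B) and the mean and SD beside the points. Grb10 on diet B lay between 8.18 and 15.3 CPM, and Tsc1 was between 20.0 and 31.9 CPM in the Ins2+/- livers on diet A.

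Most FOXO targets had higher estimates on diet B in liver. Of 30 tested, Foxo1 and Pik3ca among them, 25 had a ratio above 0, with a median of 0.21 against 0.00 over all genes, but none was called and 11 had an unadjusted p below 0.05, against 12.8% of all genes (DESeq2 and limma-voom counts for this list were not computed). These genes were measured in the same livers and are not independent, and the count of signs was not tested. Igfbp1, a secreted binding protein that insulin represses through FOXO1, averaged 114 ± 68.5 CPM in Ins2+/- livers on diet B and 27.7 ± 14.4 CPM on diet A (SD, n = 5 each). In Ins2+/+ livers it averaged 86.2 ± 34.4 CPM on diet B (n = 4) and 39.4 ± 28.4 CPM on diet A (n = 5). Its ratio was 1.62 ± 0.38 (adjusted p = 0.0619), and that of the pseudokinase gene Trib1 was 0.65 ± 0.17 (adjusted p = 0.0803). Of 64 other pathway genes, 1 was called (0.238% of all genes): Spry4, a feedback inhibitor of RAS-MAPK signalling, rose on diet B (0.90 ± 0.14, adjusted p = 0.0062). It averaged 20.8 ± 4.45 CPM on diet B and 10.9 ± 1.90 CPM on diet A in Ins2+/- livers, and 20.5 ± 5.70 and 11.5 ± 2.06 CPM in Ins2+/+ livers. Of 10 outputs of mTORC1 and ATF4, 8 had ratios above 0 and none was called, Trib3 having the lowest p (0.58 ± 0.19, adjusted p = 0.170).

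Ins2+/- livers had lower Tsc1 and higher Ptpn1 estimates on both diets, but no gene of the 37 passed the test (0.00849% of all genes called over both diets). At an unadjusted p below 0.05 edgeR counted 6 of the 37, against 9.65% of all genes, DESeq2 5 and limma-voom 7, and both called 0. The signs were uneven, with 25 of 37 ratios below 0 and a median of −0.04, against 0.00 over all genes. In the mTOR branch 8 of 10 ratios were below 0, in the brakes 6 of 7, in PI3K 3 of 4 and in the AKT targets 4 of 8. The rest lay among the PDK1 and AKT genes and the RAS-MAPK branch. Genes measured in the same livers are not independent, and these counts of signs were not tested.

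From the Tsc1 values above, each of the 10 Ins2+/- livers had less Tsc1 than the average Ins2+/+ liver on its diet. The ratio of Ins2+/- over Ins2+/+ was −0.50 ± 0.12 over both diets (adjusted p = 0.208), −0.61 ± 0.18 on diet A and −0.39 ± 0.17 on diet B. A single Ins2+/+ library decided the call: without liver Ins2+/+ A 1 the adjusted p was 0.0220 over both diets (ratio −0.59) and 0.0410 on diet A (ratio −0.78), and without all replicate 1 livers 0.0378 (−0.51) and 0.0358 (−0.71). Mlst8 had ratios of −0.32 ± 0.12 over both diets and −0.52 ± 0.17 on diet A, and Gsk3b of −0.20 ± 0.08 and −0.28 ± 0.11. Eif4ebp2 (−0.12 ± 0.06) was lower than the Ins2+/+ mean in 9 of 10 Ins2+/- livers.

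Ptpn1, the phosphatase that removes the activating phosphates from the insulin receptor, stood at 35.1, 24.5, 25.4, 26.7 and 27.8 CPM in Ins2+/- livers on diet B, against 18.1, 25.2, 24.2 and 20.0 CPM in Ins2+/+ livers. On diet A it stood at 25.5, 25.7, 30.5, 30.1 and 33.2 CPM in Ins2+/- livers, against 22.6, 21.7, 26.3, 26.1 and 19.7 CPM in Ins2+/+ livers. All 10 Ins2+/- livers were above the Ins2+/+ mean of their diet, with some overlap of single livers. The ratios were 0.32 ± 0.09 over both diets (adjusted p = 0.308), 0.34 ± 0.13 on diet B and 0.30 ± 0.13 on diet A. Without the livers with islet transcripts, the diet B ratio was 0.16. The remaining named genes with positive ratios over both diets were Mtor (0.15 ± 0.09) and Pik3r1 (0.13 ± 0.09).

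On diet A alone, 6 of the 37 genes had an unadjusted p below 0.05 (10.1% of all genes; DESeq2 and limma-voom 6 each, none called by edgeR, DESeq2 or limma-voom, while 0.00849% of all genes were called by edgeR). Pik3cb stood at 28.8, 20.8, 19.2, 17.8 and 18.8 CPM in Ins2+/- livers on diet A, against 34.2, 32.9, 34.3, 25.5 and 23.6 CPM in Ins2+/+ livers. The groups overlapped through Ins2+/- A 1. Its ratio was −0.52 ± 0.15 (adjusted p = 0.256). Foxo3 stood at 56.3, 26.3, 46.6, 30.6 and 36.2 CPM in Ins2+/- livers, against 56.5, 45.0, 47.5, 61.0 and 93.9 CPM in Ins2+/+ livers (−0.62 ± 0.21, adjusted p = 0.318), and the groups overlapped. Positive ratios of lowest p were those of Ptpn1, Gsk3a (0.19 ± 0.09) and Eif4ebp1 (0.32 ± 0.16). Macrophage markers moved with genotype in the same livers: on diet A their 12 genes had sums between 638 and 1028 CPM in Ins2+/- livers, against 515 and 631 CPM in Ins2+/+ livers, and their part in these differences was not tested.

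On diet B, 3 of the 37 genes had an unadjusted p below 0.05 (4.25% of all genes; DESeq2 3 and limma-voom 4) and none was called, as 0% of all genes were by edgeR. They were Ptpn1, Tsc1 and Eif4ebp2, a gene whose Ins2+/- livers, at 80.3, 88.9, 90.7, 87.6 and 85.0 CPM, lay just below the Ins2+/+ livers, at 98.1, 90.7, 97.1 and 105 CPM, without overlap before rounding (−0.17 ± 0.08). Shc1 (0.19 ± 0.12), Pik3r1 (0.17 ± 0.13) and Rheb (−0.18 ± 0.14) came next. Macrophage markers summed to 558 to 925 CPM (median 587) in Ins2+/- livers and 425 to 644 CPM (median 595) in Ins2+/+ livers on this diet. The medians were thus close, and the ranges overlapped.

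Whether the genotype ratio itself depended on diet was asked by the interaction, which called 0% of all genes and none of the 37 (2 at an unadjusted p below 0.05, against 4.80% of all genes; DESeq2 2 and limma-voom 5). Pik3cb had the lowest p: on diet B it stood at 29.6, 31.5, 30.8, 32.4 and 22.1 CPM in Ins2+/- livers, against 33.4, 25.6, 29.2 and 24.3 CPM in Ins2+/+ livers, so that the diet A difference had no counterpart in these values. The difference of the ratios, diet B minus diet A, was 0.59 ± 0.21 for Pik3cb, 0.66 ± 0.30 for Foxo3 and 0.80 ± 0.39 for Grb10 (adjusted p = 0.981 each). It was −0.40 ± 0.23 for Eif4ebp1, −0.22 ± 0.13 for Gsk3a and −0.18 ± 0.20 for Rheb. Without liver Ins2+/+ A 2 the Grb10 value was 0.36.

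No gene of the other lists was called for genotype in liver by edgeR (DESeq2 and limma-voom counts for these lists were not computed). Over both diets, 46 of 64 other pathway genes had ratios below 0 (median −0.04; 6 at an unadjusted p below 0.05, near the 9.65% of all genes), with Irs2, a receptor substrate, at −0.76 ± 0.27 and Ptpn11 at 0.17 ± 0.06. Irs2 averaged 6.47 ± 1.799 CPM in Ins2+/- livers and 14.2 ± 10.7 CPM in Ins2+/+ livers on diet A (SD, n = 5 each), where its ratio was −1.21 ± 0.40 (adjusted p = 0.317). Of 30 FOXO targets, 18 had ratios below 0 (7 at an unadjusted p below 0.05, against 9.65% of all genes), and Pdk4 had the lowest p (−0.60 ± 0.20). Of 10 outputs of mTORC1 and ATF4, 6 had ratios above 0, led by Sesn2 (0.36 ± 0.13).

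In muscle no gene of the 37 passed in any comparison, and SEs were larger than in liver (medians of 0.18 in muscle and 0.087 in liver for genotype over both diets). For genotype over both diets 0% of all genes were called, and 2 of the 37 had an unadjusted p below 0.05, against 3.24% of all genes (DESeq2 2 and limma-voom 0, and both called 0). The ratios centred on 0, with 19 above and 18 below (median 0.00). Ptpn1 had the lowest p here as well. It stood at 20.6, 40.4, 16.3, 55.5 and 16.8 CPM in Ins2+/- muscles on diet B, against 16.7, 20.2, 12.4, 11.4 and 19.2 CPM in Ins2+/+ muscles. On diet A it stood at 16.3, 27.5, 43.3, 12.01 and 21.6 CPM in Ins2+/- muscles, against 20.2, 17.4, 14.5, 11.7 and 18.5 CPM in Ins2+/+ muscles.

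The 3 highest Ptpn1 values, 55.5, 43.3 and 40.4 CPM, were those of the 3 muscles that stood apart. Ratios were 0.69 ± 0.25 over both diets (adjusted p = 0.999), 0.86 ± 0.36 on diet B and 0.51 ± 0.36 on diet A. Without the 3 muscles they were 0.20 over both diets, 0.17 on diet B and 0.23 on diet A, and limma-voom gave 0.18 over both diets and 0.19 on diet A. Without the muscles with islet transcripts they were 0.11 over both diets and −0.01 on diet A, a change of sign. Shc1 had a ratio of 0.52 ± 0.25, and 1 library, Ins2+/- A 2 at 68.5 CPM against 9.65 to 42.8 CPM in the others, decided it: without that library it was 0.31, and without the muscles with islet transcripts 0.34. Rheb (0.24 ± 0.16), Mtor (−0.20 ± 0.15), Gsk3a (−0.17 ± 0.13) and Inppl1 (−0.25 ± 0.20) completed the genes of lowest p. Adipocyte markers, 9 genes, summed to 195 to 969 CPM (median 350) in Ins2+/- and 273 to 441 CPM (median 391) in Ins2+/+ muscles on diet B. The lowest of these sums was that of Ins2+/- B 4 and the highest that of Ins2+/- B 2. Acinar markers of the pancreas, 12 genes, summed to 0.929 to 28877 CPM (median 243) in Ins2+/- and 1.46 to 1171 CPM (median 1.63) in Ins2+/+ muscles on diet B, with the highest sum in Ins2+/- B 4. On diet A their sums were 1.91 to 311 CPM in Ins2+/- and 2.23 to 173 CPM in Ins2+/+ muscles. The part of these markers and of the mitochondrial share in the muscle ratios was not tested. Pde3b, an adipocyte gene as well, stood at 23.0 and 15.7 CPM in Ins2+/- B 2 and B 4, and had 0 counts in Ins2+/- A 3. In the same order, the adipocyte marker Fabp4 stood at 648, 85.2 and 120 CPM, Adipoq at 72.9, 18.2 and 0 CPM, and Plin1 at 2.35, 5.79 and 6.89 CPM. Of these 3 muscles, Ins2+/- B 2 was the highest for every adipocyte marker but Plin1.

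By diet, genotype left 1 and 2 genes at an unadjusted p below 0.05 in muscle. On diet A (1.67% of all genes; 0% called; DESeq2 and limma-voom 1 each, called 0) it was Shc1, with 0.87 ± 0.35, or 0.44 without Ins2+/- A 2. Eif4ebp2 followed with 0.42 ± 0.23, and Inppl1 (−0.48 ± 0.29), Grb14 (−0.47 ± 0.29) and Mtor (−0.24 ± 0.21) had negative ratios. On diet B (4.54% of all genes; 0% called; DESeq2 2 and limma-voom 1, called 0) they were Ptpn1 and Gsk3a. Gsk3a stood at 77.6, 47.5, 78.0, 66.2 and 82.3 CPM in Ins2+/- muscles, against 84.0, 66.4, 77.1, 111 and 128 CPM in Ins2+/+ muscles (−0.40 ± 0.18). It had a ratio of −0.22 without the muscles that stood apart, −0.21 by limma-voom and −0.26 without Ins2+/+ B 5. Sos1 (0.39 ± 0.22), Rptor (0.47 ± 0.28), Grb10 (−0.37 ± 0.22) and Eif4ebp2 (−0.28 ± 0.23) came next.

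For diet in muscle, edgeR called 0.00836% of all genes and none of the 37, 2 of which had an unadjusted p below 0.05 (3.80% of all genes; DESeq2 2 and limma-voom 4, called 0). Pik3r1 stood at 56.1, 79.0, 55.8, 57.9 and 44.4 CPM in Ins2+/- muscles on diet B, against 33.4, 30.0, 60.0, 31.6 and 48.6 CPM on diet A. In Ins2+/+ muscles it stood at 45.7, 58.8, 60.0, 75.5 and 37.5 CPM on diet B, against 42.0, 44.4, 38.5, 44.4 and 29.4 CPM on diet A. In 9 of 10 diet B muscles it was above the diet A mean, and the groups overlapped (0.51 ± 0.16, adjusted p = 0.834). Without the muscles that stood apart the ratio was 0.51. Rictor was below the diet A mean in 9 of 10 diet B muscles (−0.47 ± 0.22). Mapk3 (0.41 ± 0.23), Rps6kb1 (0.23 ± 0.19), Pik3r2 (−0.47 ± 0.24) and Pik3ca (−0.26 ± 0.16) followed.

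**Figure D5:**
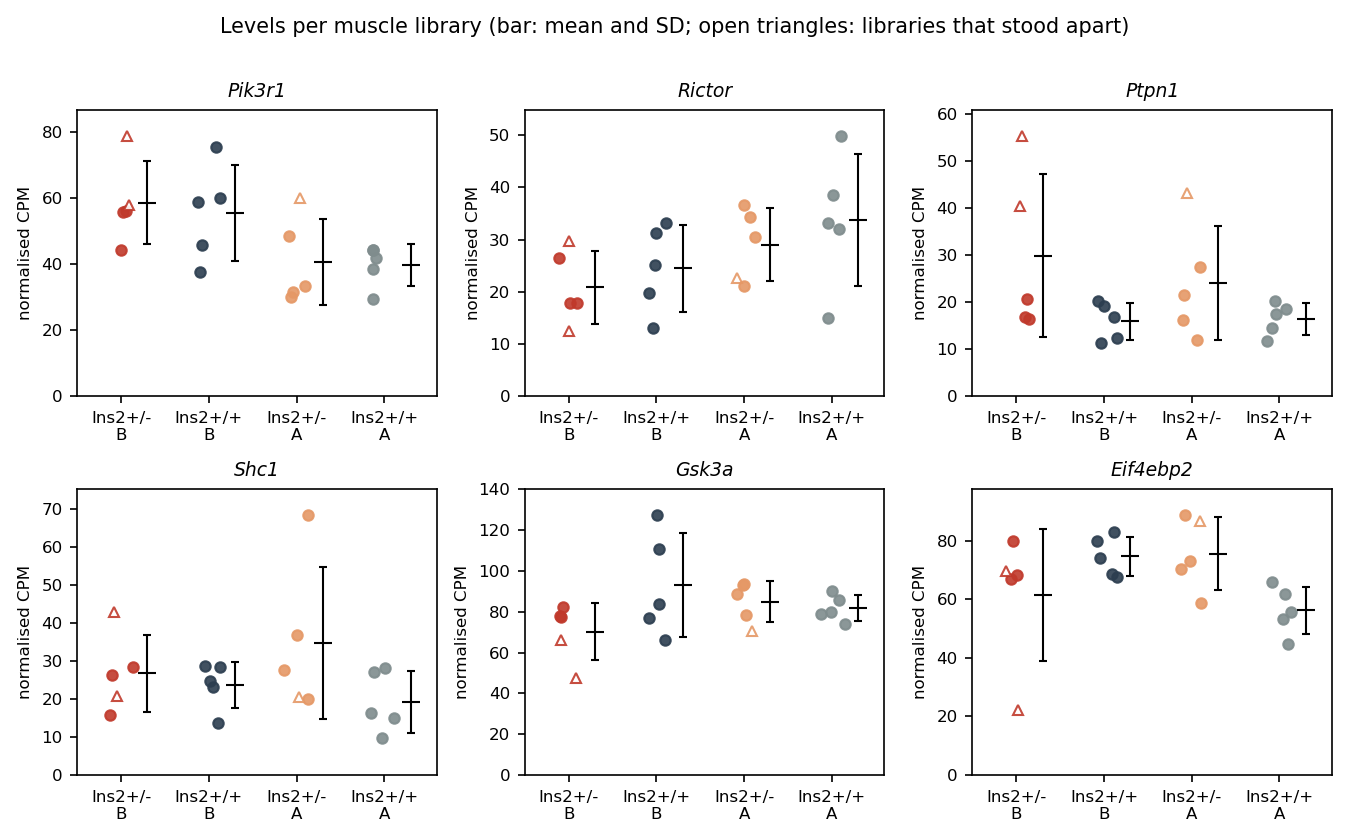
Normalised CPM (y axes, from 0) of 6 genes in every muscle, by group as in the liver plot, 5 libraries per group, with the mean and SD beside the points. Open triangles mark the 3 libraries that stood apart, which hold the 3 highest Ptpn1 values (40.4 to 55.5 CPM).

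The interaction in muscle called 0% of all genes, and 1 of the 37 had an unadjusted p below 0.05 (3.24% of all genes; DESeq2 1 and limma-voom 0, called 0). That was Eif4ebp2 (−0.70 ± 0.32). It stood at 66.7, 22.1, 79.9, 69.5 and 68.3 CPM in Ins2+/- muscles on diet B, against 68.7, 82.8, 67.5, 74.2 and 80.0 CPM in Ins2+/+ muscles. On diet A it stood at 70.2, 72.9, 86.6, 88.8 and 58.7 CPM in Ins2+/- muscles, against 61.8, 65.7, 53.4, 44.7 and 55.5 CPM in Ins2+/+ muscles. The value of 22.1 CPM is that of Ins2+/- B 2, and without the muscles that stood apart the interaction was −0.41. Sos1 (0.58 ± 0.31), Grb14 (0.74 ± 0.41), Rptor (0.67 ± 0.40), Gsk3a (−0.46 ± 0.26) and Grb10 (−0.50 ± 0.32) followed in each direction. Of the other lists in muscle, none was called in any of these comparisons by edgeR. For genotype over both diets, Txnip (−0.41 ± 0.12, adjusted p = 0.999) and Araf (0.38 ± 0.13, adjusted p = 0.999) had the lowest p among 30 FOXO targets and 61 other pathway genes. Nupr1 led the 15 outputs of mTORC1 and ATF4 (2.10 ± 0.63), of which 12 had ratios above 0, and these signs were not tested. Its values were very uneven on diet B. The Ins2+/- muscles had a median of 7.25 CPM and a highest value of 277 CPM, against a median of 6.78 CPM in Ins2+/+ muscles. On diet A the medians were 13.4 CPM in Ins2+/- and 7.57 CPM in Ins2+/+ muscles.

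The effects were last set against each other between tissues. For diet, the difference of the ratios (liver minus muscle) passed for 0% of all genes and none of the 37, with 5 of the 37 at an unadjusted p below 0.05, against 5.12% of all genes (DESeq2 5 and limma-voom 7, called 0). Pik3r1 had the lowest p at −0.67 ± 0.17 (adjusted p = 0.357): within liver its diet ratio was −0.16 ± 0.09, and within muscle 0.51 ± 0.16. Grb10 followed at 0.87 ± 0.27 (adjusted p = 0.446), then Tsc1 (0.50 ± 0.22, or 0.24 without the libraries with islet transcripts), Pik3ca (0.38 ± 0.17), Rictor (0.55 ± 0.26), Rheb (−0.29 ± 0.19) and Mapk3 (−0.35 ± 0.26). For genotype, 0% of all genes and none of the 37 passed, and 0 of the 37 had an unadjusted p below 0.05 in edgeR, against 4.93% of all genes (DESeq2 0 and limma-voom 2, called 0). The lowest p in each direction were those of Mtor (0.35 ± 0.18), Gsk3a (0.25 ± 0.17), Inppl1 (0.23 ± 0.25), Rheb (−0.33 ± 0.19), Pde3b (−0.67 ± 0.42) and Shc1 (−0.43 ± 0.27). A p above the threshold does not show that the tissues respond alike.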

How the data were processed

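Per the labels' protocols, 400 ng of total RNA per sample was made into TruSeq RNA version 2 libraries, which do not mark strand, sequenced on a HiSeq 2500 and converted with bcl2fastq 1.8.4. The submitters' processing notes name kallisto 0.42.3 and GRCm38. The authors deposited estimated counts per gene, which were rounded here; reads of related genes are divided by likelihood, so each paralogue's value depends on that division. edgeR 4.0.16 in R 4.3.3 was used within each tissue (TMM scaling, filterByExpr by group, quasi-likelihood test; 11777 liver and 11959 muscle genes, with 15 and 16 residual degrees of freedom) and over all 39 libraries (13714 genes, 31 degrees of freedom). The joint fit treats libraries as independent, since the labels do not tie a liver to a muscle. A gene was called at a Benjamini-Hochberg adjusted p below 0.05 over all genes tested. The SE is the ratio divided by the square root of F. Exon length is that of all GENCODE exons of a gene. Alternatives were RLE scaling, DESeq2 1.42.0, limma-voom (limma 3.58.1), other filters, robust dispersion, a replicate block, an adjusted p below 0.1, and libraries left out or summed. The fit without the 3 muscles that stood apart was chosen after seeing the data. Scripts were tested on simulated data. Named genes were the called members (at most 8 per direction), or else the 3 of lowest p per direction, and in other lists up to 4 called genes or else 2; further members were named with their values known. A gene that this rule names in another list is not reported here. The members and lists were chosen with earlier results of these data known. Nothing in the labels says how cages or dissections were arranged, so p values measure the spread between these libraries.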

Additional observations from a re-analysis of the deposited data

Results flagged for a closer look

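In 21 of 296 gene and group combinations, the highest or lowest library lay beyond Dixon's critical value from the others of its group, and chance alone flags about 1 in 20 groups. Of these, 9 were in liver and 12 in muscle. In liver, Cblb had 0 CPM in Ins2+/- A 5, against 10.9 to 13.2 CPM in its group. Tbc1d1 reached 15.9 CPM in Ins2+/- A 2, against 6.03 to 7.42 CPM. In Ins2+/- A 1, Pik3cb stood at 28.8 CPM (others 17.8 to 20.8) and Rheb at 49.6 CPM (others 32.6 to 37.1). Pik3cb was low in Ins2+/- B 5, at 22.1 CPM (others 29.6 to 32.4). In Ins2+/+ B 2, Grb2 was low at 46.3 CPM (others 51.8 to 52.7) and Tbc1d4 high at 3.66 CPM (others 1.62 to 1.88). Gsk3b was high in Ins2+/+ B 5, at 39.9 CPM (others 32.4 to 32.8), and Rptor in Ins2+/+ A 3, at 42.6 CPM (others 30.1 to 33.7).

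In muscle, 3 of the values were those of Ins2+/- A 3: Grb14 at 7.87 CPM (others 27.1 to 33.9), Rptor at 6.89 CPM (others 36.8 to 41.9) and Pik3ca at 145 CPM (others 71.8 to 81.3). In Ins2+/- B 2, Eif4ebp2 stood at 22.1 CPM (others 66.7 to 79.9) and Rheb at 131 CPM (others 59.2 to 65.2). In Ins2+/- B 4, Foxo3 stood at 6.62 CPM (others 34.4 to 45.0). These are the 3 muscles that stood apart over all genes. Foxo3 was high in Ins2+/- A 5, at 47.0 CPM (others 29.1 to 32.5). In Ins2+/+ A 4, Cbl was low at 2.63 CPM (others 5.57 to 6.75) and Inppl1 high at 180.0 CPM (others 95.3 to 113). Phlpp1 was low in Ins2+/+ A 5, at 9.13 CPM (others 13.1 to 14.2), and Sos1 high in Ins2+/+ A 3, at 42.7 CPM (others 23.8 to 28.6). Cbl was high in Ins2+/+ B 2, at 9.24 CPM (others 0.976 to 3.35).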

How the results depend on the processing

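The number of the 37 genes called stayed at 0 within tissues except in liver. For genotype it was 1 (Tsc1) over both diets and 1 (Tsc1) on diet A without the replicate 1 libraries, and 0 to 1 when single libraries were left out. For diet it was 1 (Grb10) at an adjusted p below 0.1 and with DESeq2, 2 with limma-voom, and 0 to 1 when single libraries were left out. Between the tissues it was 29 to 31 when single libraries were left out, and RLE scaling moved the median of all genes by 0.16. The replicate block left the within-tissue counts at 0 and gave 30 calls between tissues. Within a tissue the block was the replicate number, with mean correlations of −0.037 to 0.22, highest for replicate 1 in both tissues. Between tissues it was the genotype, diet and number, where a liver and a muscle correlated at −0.251 to 0.193. Changes of sign were seen in muscle for Mtor for genotype (0.00665 by limma-voom), for Inppl1 for genotype (0.0153 without the muscles that stood apart) and for Ptpn1 on diet A (−0.0124 without the muscles with islet transcripts), and for Inppl1 in the genotype difference between tissues (−0.0159 by limma-voom); the cause was not tested. Over all genes, 28 were called for diet in liver, against 42 with the block or no filter, 170 at an adjusted p below 0.1, 192 with DESeq2, 292 with limma-voom, 78 without the replicate 1 libraries, 18 with livers Ins2+/- B 2 and B 3 summed, and 8 without the livers with islet transcripts. Leaving out single livers gave 17 to 110 calls for diet: 110 without Ins2+/- B 5, 103 without Ins2+/+ A 2, 89 without Ins2+/- B 1, 57 without Ins2+/- A 1, 17 without Ins2+/- B 4, and 18 each without Ins2+/- B 2, Ins2+/- B 3 or Ins2+/+ B 2. For genotype in liver over both diets 1 was called, against 20 with DESeq2 and 14 with limma-voom; on diet A 1, against 16 with DESeq2; on diet B 0, against 37 with limma-voom. Low counts limit Tbc1d4 in both tissues and Cbl, Pde3b and Pik3cb in muscle, where some libraries held 4 counts or fewer. Cblb in liver had 0 counts in Ins2+/- A 5, against 10.9 to 13.2 CPM in its group. In that library 3 counts are 2.33 CPM, and the cause of the 0 was not tested.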
